A study of Mus musculus with 24 samples.

Results

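The genes described here make, use and control the antioxidant glutathione, and bring in the cystine it is made from. They were chosen by function from the pathway, with earlier results of these data known. The set holds 10 genes of the 52636 gene identifiers counted, and all 10 passed the filter on low counts that left 19726 genes for testing. Slc7a11 and Slc3a2 encode the subunits of the cystine-glutamate exchanger, Gclc, Gclm and Gss the enzymes of glutathione synthesis, and Gsr the reductase that recycles it. Gpx1 and Gpx4 encode peroxidases that spend glutathione, Nfe2l2 encodes the transcription factor Nrf2, and Hmox1 encodes heme oxygenase 1, a classic Nrf2 target.

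The exchanger, known as system xc-, imports cystine and releases glutamate in return, so in brain it links antioxidant supply to the pool of glutamate outside cells. Cystine is reduced to cysteine, which is joined to glutamate and then to glycine to make glutathione, and the first of these steps limits the rate. Astrocytes are known as the main source of glutathione precursors for neurons, and Nrf2, held down by Keap1 until oxidants release it, drives many genes of the pathway.

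The study sequenced RNA from the brains of 24 mice, 6 to a group, in 2 mouse lines where Cre recombinase was aimed at EAAT2, the glutamate transporter encoded by Slc1a2. In the syn line the groups were syn-Cre+ EAAT2−/− and syn-Cre− EAAT2+/+, and in the gfap line they were gfapCre+ EAAT2Δ/+ and gfap-Cre− EAAT2+/+. They are called syn-Cre-positive, syn-Cre-negative, gfap-Cre-positive and gfap-Cre-negative below. The synapsin promoter is active in neurons and the Gfap promoter in astrocytes and neural progenitors. The Cre-positive groups therefore differ both in the cells aimed at and in the genotype as given, EAAT2−/− against EAAT2Δ/+, and these cannot be told apart. The sources used here give no age, sex, strain background or brain region.

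Libraries held 41596313 to 69652824 counts in genes. Slc1a2 itself spanned 2616 to 3235 CPM (counts scaled to a TMM-adjusted library size) in syn-Cre-positive, 3227 to 3461 in syn-Cre-negative, 3043 to 3855 in gfap-Cre-positive and 2494 to 3980 CPM in gfap-Cre-negative libraries. It did not pass the test between Cre-positive and Cre-negative brain (log2 fold change −0.14 in the syn line and −0.02 in the gfap line). Directions below are therefore between libraries as labelled. Slc1a2 was lower in syn-Cre-positive than in gfap-Cre-positive brain (−0.21, edgeR adjusted p = 0.044), where 27.5% of all genes were called. There 4 of 6 syn libraries lay below the lowest gfap one. In Cre-negative brain the line difference of Slc1a2 did not pass (−0.08). A count over the whole gene need not fall when an exon is deleted. All 10 astrocyte, 10 neuron, 10 oligodendrocyte and 10 microglia markers were detected in every library, which are labelled brain. Ttr, a gene of the choroid plexus, was above 1000 CPM in 3 syn-Cre-positive, 3 syn-Cre-negative and 0 gfap libraries. Library gfap-Cre-negative 4 stood apart, with the lowest Slc7a11 and Slc1a2 and the highest Slc3a2, Gss, Gsr, Gpx1, Gpx4 and Nfe2l2 of its group. Library syn-Cre-negative 5 had 7.46% of reads ambiguous between genes, against at most 3.92% elsewhere. For several results below, the value without either library is given beside the main one.

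In neither line did any of the 10 genes pass the test between Cre-positive and Cre-negative brain, where 0.00507% of all 19726 genes passed in the syn line and 0.0101% in the gfap line. The transcripts of the exchanger, of glutathione synthesis and recycling, of both peroxidases, of Nrf2 and of heme oxygenase 1 all overlapped between groups. The largest estimates were Nfe2l2 in the syn line, 13.7% below Cre-negative, and Slc7a11 in the gfap line, 12.3% above it, each with an interval that includes 0. Between the lines 2 of 10 genes passed in Cre-negative brain, Gsr and Gpx4 (31.2% of all genes passed), and 2 of 10 in Cre-positive brain, Gsr and Gss (27.5% of all genes). These differences were 10.3 to 13.8% in size.

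Levels were compared between genes per kilobase of exon, since longer transcripts collect more reads. The length joins all exons annotated for a gene and can exceed that of the transcripts expressed, so the order depends on it. On this scale Gpx4 stood highest at 86.8 CPM per kilobase (mean of 24 libraries), followed by Slc3a2 at 31.1 and Gpx1 at 25.1. Gclc at 15.7, Gclm at 8.75 and Gsr at 8.62 came next. Nfe2l2 at 3.91, Slc7a11 at 3.60, Gss at 3.06 and Hmox1 at 2.78 CPM per kilobase formed the low end. The ranges of Gclm (7.76 to 9.47) and Gsr (7.29 to 10.1) overlapped across the 24 libraries. The ranges of the low 4 also touched each other, from 2.12 CPM per kilobase for the lowest Hmox1 library to 5.84 for the highest Nfe2l2 library. Gclc stood above both Gclm and Gsr per kilobase in every library, as its lowest value was 14.4. Before division by length Gclc and Gclm were close, with ratios from 0.988 to 1.22 over the libraries.

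**Figure D1:**
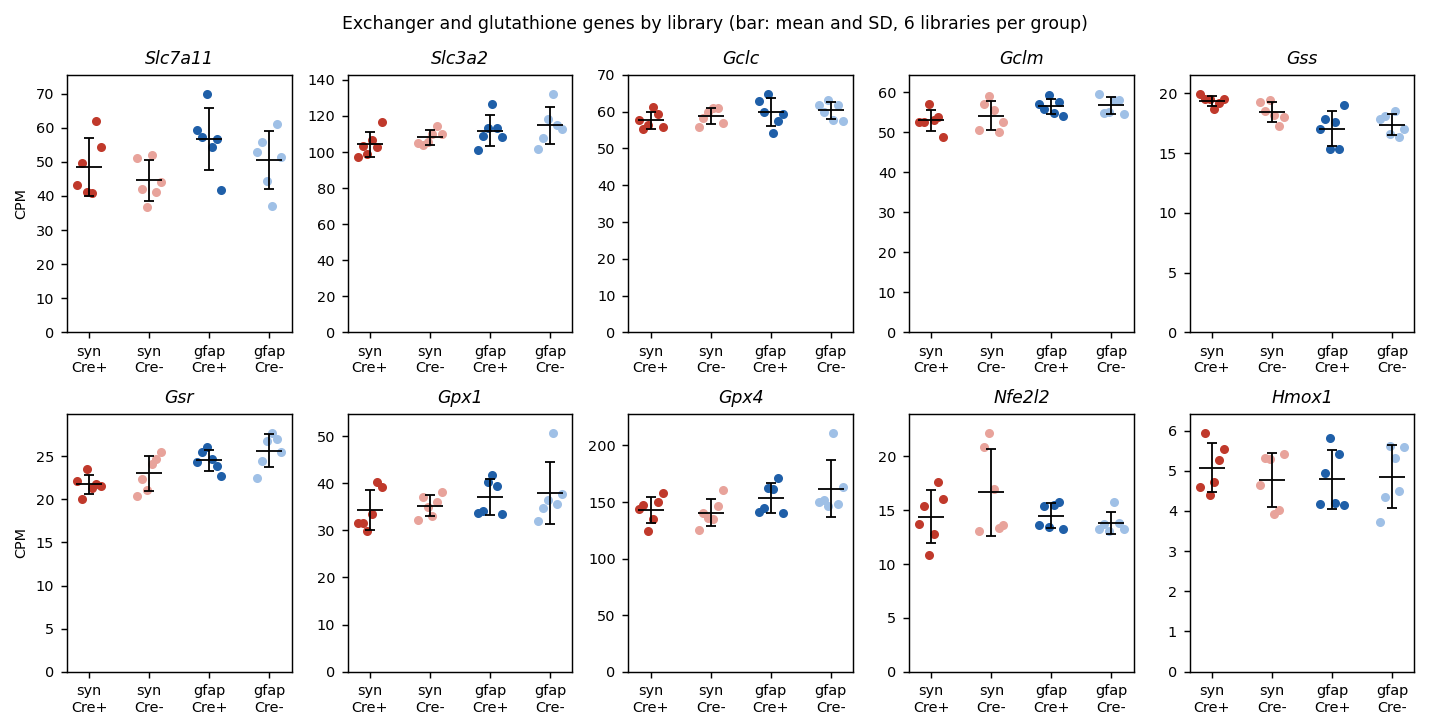
Level of each of the 10 genes in CPM on a linear axis from 0, with 1 point per library (6 per group) and the mean and SD as bars. The groups overlap in every panel. Slc7a11 scatters widely within groups and Nfe2l2 within the syn groups, while Gclc and Gclm do not. The highest Gpx1 and Gpx4 points are library gfap-Cre-negative 4 at 50.7 and 211.1 CPM.

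Slc7a11 (ENSMUSG00000027737, GRCm38/mm10 chromosome 3, 49892526 to 50443614, minus strand) encodes xCT, the light chain that carries cystine and glutamate. It stood lowest at 40.9, median 46.5 and highest 62.1 CPM in syn-Cre-positive brain. In syn-Cre-negative brain these values were 36.7, 43.2 and 52.0 CPM. In gfap-Cre-positive brain they were 41.9, 57.1 and 70.02 CPM, and in gfap-Cre-negative brain 37.0, 52.2 and 61.2 CPM. The order of group means ran from gfap-Cre-positive (56.6 ± 9.06) through gfap-Cre-negative (50.5 ± 8.55) and syn-Cre-positive (48.6 ± 8.48) to syn-Cre-negative (44.6 ± 5.93 CPM; SD, n = 6 each). Each gap between neighbours in that order was smaller than the SD of either group. The Cre-positive mean was the higher of the pair in both lines, with a log2 fold change of 0.12 in the syn line (95% interval −0.14 to 0.39) and 0.17 in the gfap line (−0.10 to 0.43), both at edgeR adjusted p = 1.00. The gfap value was 0.09 without library gfap-Cre-negative 4. The syn value was 0.04 without library syn-Cre-positive 5 and −0.09 without the libraries above 1000 CPM of Ttr.

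The Slc7a11 promoter is shown because its known control by the amino-acid stress factor ATF4 runs through paired composite sites in this window. The RefSeq promoter table (GRCm38.p6, 250 bases before to 50 after each start) held windows for 7 of the 10 genes, 10 windows in all. It held none for Gclc, Gsr or Hmox1. The letters TGATGNAA, the core of a composite site for ATF4 and C/EBP factors, were searched on both strands. Matches are in capitals, and the stretch is given in the direction of the gene, minus strand, chr3:50443637-50443695.
Slc7a11 promoter: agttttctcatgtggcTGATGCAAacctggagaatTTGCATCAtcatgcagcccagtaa
The window held 2 matches on opposite strands, with 11 bases between them, 58 and 39 bases before the annotated gene start. Of 32851 promoter windows, 4.0% held the core at least once and 23 (0.07%) held it 2 or more times. A match describes the letters and not binding. Of 15 other Atf4 target genes tested, 0 were called in either Cre comparison (0.00507% of all genes in the syn and 0.0101% in the gfap line). Between lines 1 of 15 was called in Cre-negative brain (31.2% of all genes) and 0 in Cre-positive brain (27.5%).

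Slc3a2 (ENSMUSG00000010095, chromosome 19, 8706882 to 8723369) encodes CD98hc, the heavy chain that holds xCT and several other amino-acid exchangers at the membrane. It ranged from 97.4 to 116.4 CPM in syn-Cre-positive, 103.7 to 114.5 in syn-Cre-negative, 101.2 to 126.5 in gfap-Cre-positive and 101.8 to 132.4 CPM in gfap-Cre-negative brain. Group means lay between 104.3 ± 6.77 CPM in syn-Cre-positive and 114.8 ± 10.4 CPM in gfap-Cre-negative brain (SD, n = 6 each). The Cre comparisons gave log2 fold changes of −0.05 (−0.17 to 0.06) in the syn line and −0.04 (−0.15 to 0.08) in the gfap line. The gfap value was 0.005 without library gfap-Cre-negative 4. The ratio of light to heavy chain, Slc7a11 over Slc3a2 in CPM, was 0.466 ± 0.0765 in syn-Cre-positive and 0.412 ± 0.0568 in syn-Cre-negative brain. It was 0.509 ± 0.0889 in gfap-Cre-positive and 0.446 ± 0.100 in gfap-Cre-negative brain (SD, n = 6 each). Per kilobase of exon the ratio was 0.105 to 0.129, so light-chain reads were the scarcer of the pair. The ratio did not pass an exact 2-sided permutation test in the syn line (log2 difference 0.17, p = 0.19) or the gfap line (0.21, p = 0.314), and adjusted over 8 ratio comparisons both gave 0.788. The gfap difference was 0.08 without library gfap-Cre-negative 4, and the syn difference 0.09 without library syn-Cre-positive 5.

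Gclc (ENSMUSG00000032350, chromosome 9, 77754535 to 77794485) encodes the catalytic subunit and Gclm (ENSMUSG00000028124, chromosome 3, 122245557 to 122270732) the modifier subunit of glutamate-cysteine ligase, the rate-limiting enzyme of glutathione synthesis. Gclc ran from 54.3 to 64.9 CPM over all 24 libraries, with group means from 57.6 ± 2.27 in syn-Cre-positive to 60.3 ± 2.33 CPM in gfap-Cre-negative brain (SD, n = 6 each). Gclm ran from 48.9 to 59.6 CPM, with means from 53.0 ± 2.66 in syn-Cre-positive to 56.7 ± 2.15 CPM in gfap-Cre-negative brain. These were the steadiest of the 10 genes. The Gclc interval in the syn line was −0.12 to 0.06 and in the gfap line −0.10 to 0.08 on the log2 scale. For Gclm the intervals were −0.13 to 0.07 and −0.10 to 0.09. The ratio Gclc over Gclm was 1.09 ± 0.0616, 1.09 ± 0.0745, 1.06 ± 0.0512 and 1.07 ± 0.0504 in the order syn-Cre-positive, syn-Cre-negative, gfap-Cre-positive and gfap-Cre-negative. None of its 4 comparisons passed the exact permutation test (p = 0.37 to 0.989). Of Gclm's exonic bases, 8.6% overlap other annotated genes.

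Gss (ENSMUSG00000027610, chromosome 2, 155563181 to 155592810) encodes glutathione synthetase, which adds glycine. It stood lowest at 18.7, median 19.5 and highest 19.98 CPM in syn-Cre-positive brain, and at 17.3, 18.3 and 19.4 CPM in syn-Cre-negative brain. The gfap-Cre-positive libraries gave 15.3, 17.3 and 19.0 CPM and the gfap-Cre-negative libraries 16.4, 17.4 and 18.5 CPM. For the syn groups, 4 of 6 Cre-positive values exceeded the highest Cre-negative value, but the lower tail overlapped (log2 fold change 0.07, −0.04 to 0.19). The gfap line gave −0.03 (−0.15 to 0.08). Of Gss exonic bases, 18.6% overlap Acss2, Gssos2 or Gssos1 on the opposite strand, and reads there can be assigned with certainty only in a stranded count, and the sources used here do not give that setting.

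Gsr (ENSMUSG00000031584, chromosome 8, 33652523 to 33698163) encodes glutathione reductase, which returns oxidised glutathione to its active form with NADPH. It stood lowest at 20.1, median 21.7 and highest 23.5 CPM in syn-Cre-positive brain and at 20.4, 23.2 and 25.5 CPM in syn-Cre-negative brain. In the gfap line the Cre-positive libraries gave 22.7, 24.6 and 26.1 CPM and the Cre-negative libraries 22.5, 26.2 and 27.7 CPM. The Cre-positive mean was the lower in both lines, by less than the intervals allow (−0.08, −0.21 to 0.04, and −0.06, −0.19 to 0.06).

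Gpx1 (ENSMUSG00000063856, chromosome 9, 108338903 to 108340343) encodes the cytosolic peroxidase that clears hydrogen peroxide. It ranged over 29.9 to 40.2 CPM in syn-Cre-positive, 32.2 to 38.1 in syn-Cre-negative, 33.5 to 41.7 in gfap-Cre-positive and 32.1 to 50.7 CPM in gfap-Cre-negative brain. The syn Cre comparison gave −0.04 (−0.23 to 0.15) and the gfap comparison −0.03 (−0.21 to 0.16), or 0.07 without library gfap-Cre-negative 4. Gpx4 (ENSMUSG00000075706, chromosome 10, 80047166 to 80056439) encodes the peroxidase that removes lipid peroxides from membranes and so holds back ferroptosis. Its lowest, median and highest levels were 124.6, 145.4 and 157.7 CPM in syn-Cre-positive and 125.6, 137.7 and 160.9 CPM in syn-Cre-negative brain. They were 139.9, 153.1 and 171.6 CPM in gfap-Cre-positive and 146.4, 150.9 and 211.1 CPM in gfap-Cre-negative brain. The highest value was library gfap-Cre-negative 4, and the other 5 of that group stopped at 163.7 CPM. The Cre comparisons of Gpx4 gave 0.03 (−0.14 to 0.19) in the syn line and −0.08 (−0.24 to 0.08) in the gfap line, or 0.01 without that library. A processed pseudogene of Gpx4 is annotated, so part of its reads may be uncertain.

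Nfe2l2 (ENSMUSG00000015839, chromosome 2, 75675513 to 75704641, minus strand) encodes Nrf2, whose activity is set mainly by protein stability. It stood lowest at 10.8, median 14.6 and highest 17.6 CPM in syn-Cre-positive brain. In syn-Cre-negative brain it stood at 13.1, 20.9, 22.2, 16.9, 13.3 and 13.7 CPM in libraries 1 to 6, so libraries 2, 3 and 4 were high and the other 3 were close together. The gfap libraries stayed within 13.3 to 15.8 CPM in Cre-positive and 13.04 to 15.8 CPM in Cre-negative brain. The SD of the log2 level was 0.34 in syn-Cre-negative and 0.25 in syn-Cre-positive brain, against 0.12 and 0.10 in the gfap groups (Cre-positive first), differences in spread that were not tested. The syn Cre comparison gave −0.21 (SE 0.12, −0.46 to 0.03, unadjusted p = 0.0874, edgeR adjusted p = 1.00) and the gfap comparison 0.07 (−0.18 to 0.32). The syn value was −0.14 without syn-Cre-negative 2, −0.11 without syn-Cre-negative 3, −0.14 without syn-Cre-positive 3, and −0.33 without the libraries above 1000 CPM of Ttr (edgeR adjusted p = 0.872). The difference between the Cre effects was −0.28 (−0.63 to 0.07) and did not pass.

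Hmox1 (ENSMUSG00000005413, chromosome 8, 75093621 to 75100589) encodes the inducible enzyme that breaks down heme. It was the least abundant of the 10 genes, with 163 to 368 counts and 3.71 to 5.94 CPM over the 24 libraries. Group means were 5.08 ± 0.607, 4.77 ± 0.674, 4.78 ± 0.728 and 4.85 ± 0.779 CPM (SD, n = 6 each) in the order syn-Cre-positive, syn-Cre-negative, gfap-Cre-positive and gfap-Cre-negative. Neighbouring means differed by less than either SD. Its Cre comparisons gave 0.09 (−0.16 to 0.34) in the syn line and −0.02 (−0.27 to 0.23) in the gfap line.

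Nrf2 binds the antioxidant response element, whose core TGACNNNGC was searched on both strands in the same promoter windows. Gclc, Gsr and Hmox1 had no window and were not searched. The stretches with a match among the other genes are shown, with the match in capitals and each in the direction of its gene. The Nfe2l2 stretch lies at chr2:75704879-75704913 (minus strand) and the Gclm stretch at chr3:122245407-122245447 (plus strand), where the core reads on the opposite strand.
Nfe2l2 promoter: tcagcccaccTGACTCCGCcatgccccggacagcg
Gclm promoter: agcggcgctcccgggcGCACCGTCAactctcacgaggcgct
The core lay 254 bases before the annotated start of Nfe2l2 and 126 bases before that of Gclm. It occurred in 2 of the 10 windows, 4 of which belong to Gpx4, against 4071 of 32851 windows (12.4%) over all genes. Known distal elements of these genes lie outside such a window. The AP-1 letters TGANTCA occurred in 0 of the 10 windows (7.8% of all) and the CCAAT box in 5 (37.4% of all). Those 5 were the windows of Slc7a11 and Gclm and several of Gpx4, of which some overlap and share the same boxes.

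Put together, 0 of the 10 genes were called in the syn line, where 0.00507% of all 19726 genes were called, and 0 in the gfap line, where 0.0101% were. For the difference between the Cre effects 0 of 10 were called, against 0.0101% of all genes. In each of these comparisons 0 of the 10 were at an unadjusted p under 0.05, and DESeq2 and limma-voom also called 0. The median log2 fold change of the 10 genes was −0.03 in the syn line and −0.02 in the gfap line, beside −0.003 over all genes in each. Their median absolute change was 0.06 in the syn line and 0.03 in the gfap line, beside 0.07 over all genes in both. Over the 10 genes the intervals reached from −27.2% to 30.9% in the syn line and from −17.1% to 34.8% in the gfap line. The widest belonged to Nfe2l2, Slc7a11 and Hmox1, so changes within those intervals remain possible for these genes. The Gclc and Gclm intervals were the narrowest.

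**Figure D2:**
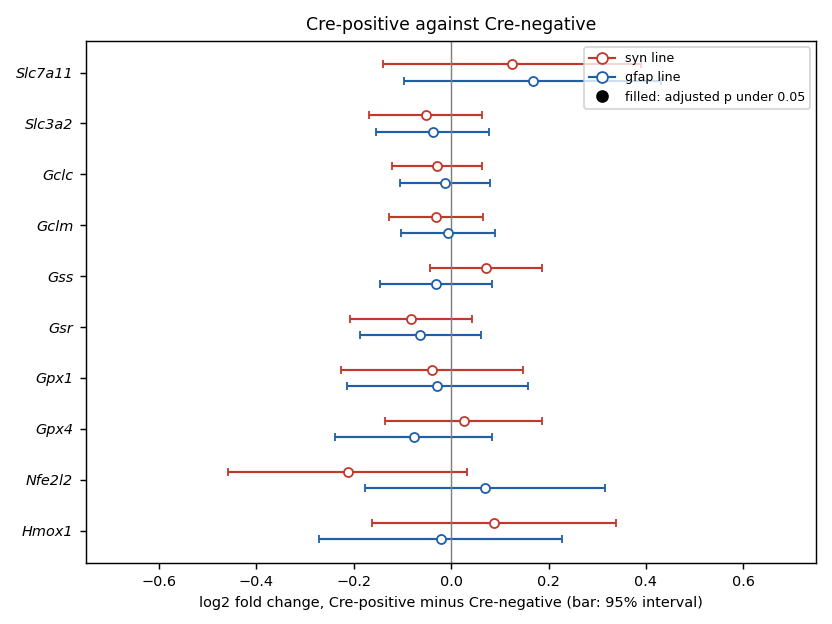
Log2 fold change of each gene, Cre-positive minus Cre-negative, with its 95% interval from edgeR for the syn line (red) and the gfap line (blue), n = 6 libraries per group. Every interval crosses 0 and no point is filled, from −0.21 for Nfe2l2 in the syn line to 0.17 for Slc7a11 in the gfap line.

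Between the lines, Gsr was lower in the syn line within both genotypes. In Cre-negative brain it stood at 23.0 ± 2.04 CPM for syn against 25.7 ± 1.94 CPM for gfap (SD, n = 6 each; log2 fold change −0.16, SE 0.06, edgeR adjusted p = 0.0487). In Cre-positive brain it stood at 21.7 ± 1.11 against 24.6 ± 1.22 CPM, with 5 of 6 syn libraries below the lowest gfap one (−0.18, SE 0.06, edgeR adjusted p = 0.0312). Gpx4 was lower in the syn line in Cre-negative brain, at 140.5 ± 12.1 against 161.9 ± 24.9 CPM (−0.20, SE 0.08, edgeR adjusted p = 0.0477), and 5 of 6 syn libraries lay below the lowest gfap one. Gss was higher in the syn line in Cre-positive brain, at 19.4 ± 0.427 against 17.0 ± 1.45 CPM, with 5 of 6 syn libraries above the highest gfap one (0.19, SE 0.06, edgeR adjusted p = 0.0147).

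These calls were 2 of 10 genes in Cre-negative brain, 0 higher and 2 lower, where 31.2% of all genes were called. In Cre-positive brain they were also 2 of 10, 1 higher and 1 lower, where 27.5% of all genes were called. Both shares of the 10 genes lie below those of all genes, a difference that was not tested. Of the others, Slc7a11 was at −0.18 (−0.44 to 0.09) in Cre-negative and −0.22 (−0.49 to 0.04) in Cre-positive brain. Nfe2l2 was at 0.27 (0.03 to 0.52, edgeR adjusted p = 0.0842) in Cre-negative and −0.01 (−0.26 to 0.24) in Cre-positive brain. Slc3a2, Gclc, Gclm and Gpx1 were lower by value in the syn line in both genotypes without passing. Gclm in Cre-positive brain came nearest at −0.09 (−0.19 to 0.005, edgeR adjusted p = 0.15). The median of the 10 genes was −0.08 in Cre-negative and −0.10 in Cre-positive brain, beside −0.02 over all genes in each.

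The calls on Gsr and Gpx4 sat close to the threshold. In Cre-negative brain both were lost with RLE or upper-quartile scaling, DESeq2 or limma-voom. In Cre-positive brain the Gsr call was lost with RLE or upper-quartile scaling or DESeq2, and kept with limma-voom. Without library gfap-Cre-negative 4 the Cre-negative Gsr value was −0.12 (edgeR adjusted p = 0.141) and the Gpx4 value −0.10 (adjusted p = 0.226). Without library syn-Cre-negative 5 Gsr kept its call (adjusted p = 0.0338), Gpx4 just missed it (−0.22, adjusted p = 0.0503) and Nfe2l2 passed at 0.33 (edgeR adjusted p = 0.0414). Without the libraries above 1000 CPM of Ttr 0 of the 10 genes passed in either genotype. The Gss call missed narrowly without library gfap-Cre-positive 3 (0.16, edgeR adjusted p = 0.0501).

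**Figure D3:**
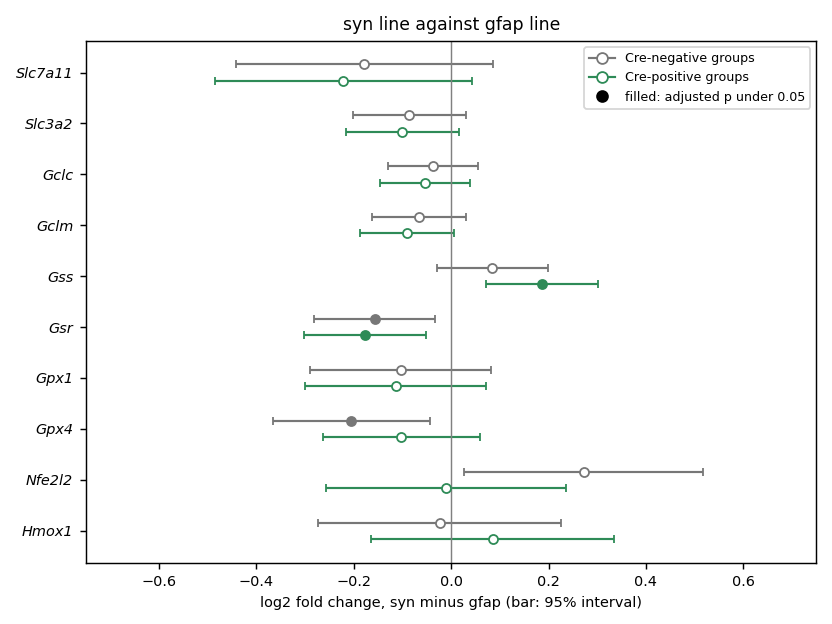
Log2 fold change of each gene, syn line minus gfap line, with its 95% interval from edgeR for the Cre-negative groups (grey) and the Cre-positive groups (green), n = 6 libraries per group, filled where the adjusted p is under 0.05. Gsr is filled in both, Gpx4 only in the Cre-negative groups and Gss only in the Cre-positive groups, and every other interval crosses 0 except that of Nfe2l2 in the Cre-negative groups (0.03 to 0.52), which is unfilled.

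Several lists of cell type markers moved between the lines beside these genes. Of all genes, 31.2% were called in Cre-negative and 27.5% in Cre-positive brain. Of 10 neuron markers, 8 were lower in the syn line in Cre-negative and 6 in Cre-positive brain, and their summed level spanned 10670 to 11820 CPM over the syn libraries and 11550 to 14330 CPM over the gfap libraries. Of 10 oligodendrocyte markers, 9 and 10 were higher in the syn line, with summed levels of 5534 to 8541 CPM in syn and 3747 to 5535 CPM in gfap libraries. Choroid plexus markers were higher for 8 of 8 and 6 of 8, and their sum spanned 69.7 to 5361 CPM in syn libraries and 51.3 to 272.7 CPM in gfap libraries. Astrocyte markers were called in both directions (1 higher and 2 lower in Cre-negative, 2 and 2 in Cre-positive brain) and their sums overlapped, at 2546 to 2891 CPM in syn and 2732 to 3069 CPM in gfap libraries. Endothelial markers were lower for 3 and 4 of 8, and erythroid markers higher for 2 and 1 of the 5 tested. Microglia markers were called for 1 and 2 of 10 and mural markers for 1 and 1 of 8. Meningeal fibroblast markers were called for 2 and 1 of 8, and border macrophage markers for 0 and 0 of 8. No list's share was tested against that of all genes. The share of reads outside genes also differed without overlap, at 7.52 to 11.1% of a file in syn and 4.47 to 6.37% in gfap libraries. The part of these markers and of this share in the line differences of Gsr, Gss and Gpx4 was not tested. In bulk tissue fewer cells of a type and less RNA per cell cannot be told apart.

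Within groups the 10 genes split by steadiness. The pooled SD of the log2 level within groups was 0.235 for Slc7a11, larger than that of 94.8% of 10489 expressed genes, those whose log2 CPM averaged 3 or more. It was 0.225 for Nfe2l2 (94.0%) and 0.209 for Hmox1 (92.0%), which itself lies below that minimum. For Nfe2l2 the spread was wide only in the syn groups, at 0.254 in syn-Cre-positive and 0.339 in syn-Cre-negative brain. It was 0.116 in gfap-Cre-positive and 0.102 in gfap-Cre-negative brain. At the other end stood Gclc at 0.0657 (5.44%), Gclm at 0.0711 (8.84%) and Gss at 0.0799 (15.8%), beside a median of 0.116 over those genes. The peroxidases were in the upper part, Gpx1 at 0.169 and Gpx4 at 0.146, and Slc3a2 (0.099) and Gsr (0.0994) near the middle. Across all 24 libraries the highest level was 2.05 times the lowest for Nfe2l2, 1.91 times for Slc7a11 and 1.2 times for Gclc.

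Co-variation was measured within each line over 12 libraries after removing group means, as 45 pairs of the 10 genes per line and 90 in all. Slc3a2 and Gpx1 rose and fell together in the gfap line (Pearson r = 0.888, Spearman rho = 0.909, n = 12, permutation p adjusted over 90 = 0.0126 and 0.0252). Without the 2 libraries farthest from the median of Slc3a2, r was 0.749. In the syn line the same pair gave r = 0.528 (rho = 0.51, adjusted permutation p = 0.426), and the difference between lines was not tested. Without library gfap-Cre-negative 4, highest in both genes, r was 0.83 and the adjusted permutation p was 0.0855.

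No other pair passed, so the counts were 0 of 45 in the syn line and 1 of 45 in the gfap line, with 3 and 10 pairs at an unadjusted permutation p under 0.05. Gpx1 and Gpx4 had the largest r in each line, 0.754 in the syn line (rho = 0.776, adjusted permutation p = 0.169) and 0.938 in the gfap line (rho = 0.748, adjusted permutation p = 0.0977). The subunits of the exchanger gave r = 0.274 in the syn and −0.40 in the gfap line, the latter −0.06 without library gfap-Cre-negative 4. Gclc and Gclm gave r = 0.237 in the syn and 0.462 in the gfap line. Against the summed markers of 10 cell types, 0 of 200 correlations passed. The nearest were Gpx1 with erythroid markers in the syn line (r = 0.882, adjusted permutation p = 0.071) and Gclc with neuron markers in the gfap line (r = 0.707, adjusted permutation p = 0.071). Nfe2l2 and neuron markers gave r = −0.796 in the syn line (adjusted permutation p = 0.238). The libraries of a line share their scaling and their mix of tissue, which the points carry too.

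**Figure D4:**
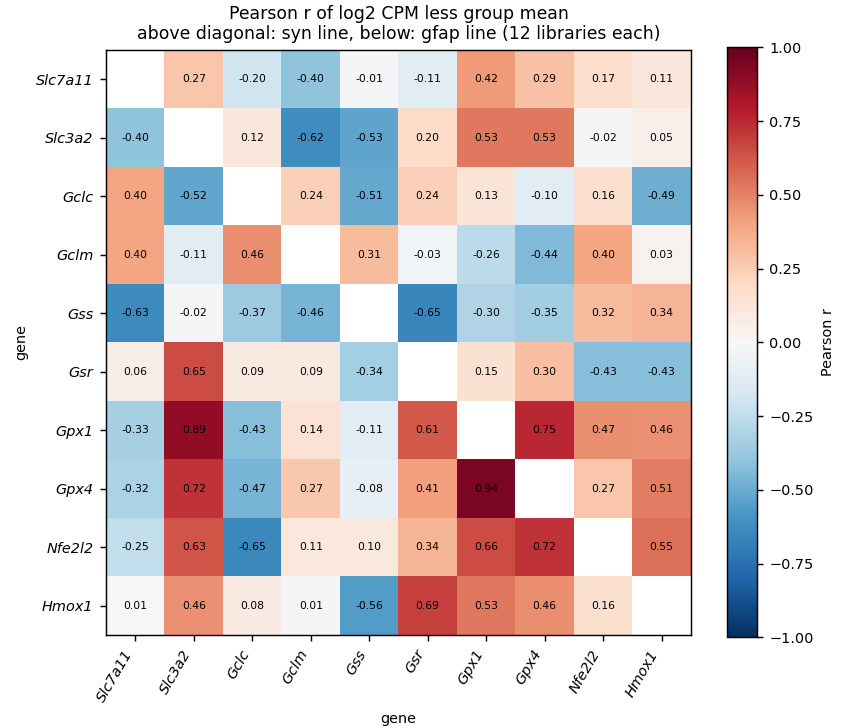
Pearson r between the log2 levels of each pair of genes after removing group means, over 12 libraries of the syn line (above the diagonal) and 12 of the gfap line (below). The strongest cells are Gpx1 with Gpx4 and, in the gfap line, Gpx1 with Slc3a2 (0.888), while Slc7a11 with Slc3a2 is 0.274 in the syn and −0.40 in the gfap line.

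**Figure D5:**
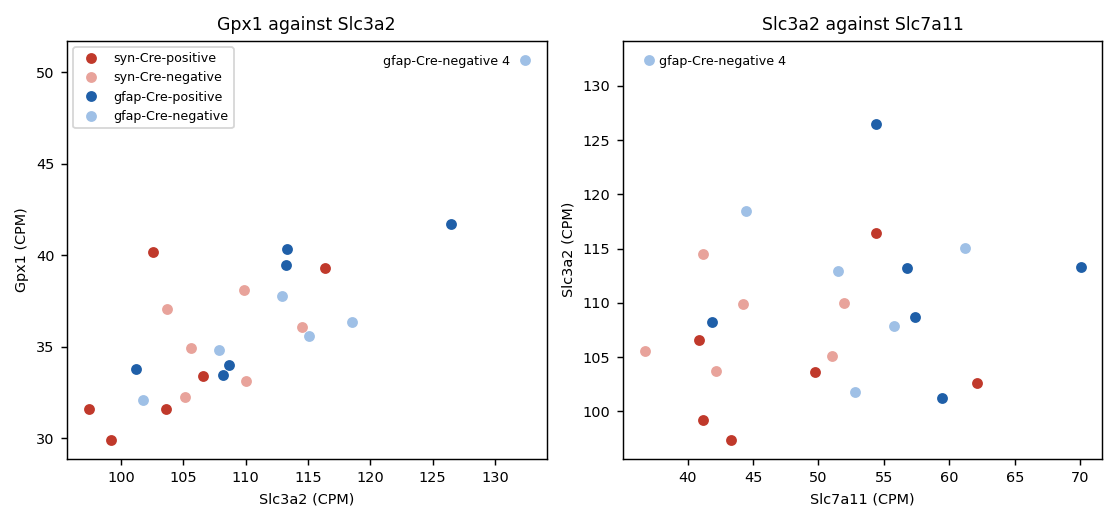
Gpx1 against Slc3a2 (left) and Slc3a2 against Slc7a11 (right) in CPM on linear axes that do not start at 0, with 1 point per library coloured by group. Library gfap-Cre-negative 4 lies at the upper end of both plots on the vertical axis, with 132.4 CPM of Slc3a2, 50.7 CPM of Gpx1 and 37.0 CPM of Slc7a11.

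Over all 24 libraries, again less group means, the genes most like Slc7a11 among the 10489 were the organic anion transporter gene Slc22a8 (r = 0.727), Lrrc75b (0.703) and Kank2 (0.703). Those most like Nfe2l2 were Mdk (the growth factor midkine, r = 0.894), Ezr (a membrane linker, 0.789) and B2m (MHC class I light chain, 0.787). In the syn and gfap lines Mdk gave 0.94 and 0.872 and B2m 0.836 and 0.793, but Ezr gave 0.843 and 0.472. For Hmox1 the genes most alike were the calcineurin regulator gene Rcan1 (0.766), Vhl (0.749) and Agpat4 (0.732). Vhl encodes the recognition subunit that marks hypoxia-inducible factors for breakdown. None of the 9 is another of the 10 genes. These are the top ranks of a long list over libraries that share scaling and tissue mix, and they are given without a test.

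The wider pathway, 148 genes in 11 lists, had 145 genes tested. In the Cre comparisons 0 of 145 were called in the syn line, 0 in the gfap line and 0 for their difference, with 5, 1 and 4 at an unadjusted p under 0.05. The smallest p in the syn line belonged to Slc7a5, the large neutral amino-acid light chain that shares CD98hc with xCT (log2 fold change −0.20, edgeR adjusted p = 0.841). In the gfap line it belonged to Chac2, a glutathione-degrading enzyme (0.17, edgeR adjusted p = 1.00).

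Between the lines 47 of 145 pathway genes were called in Cre-negative brain, 8 higher and 39 lower in the syn line (32.4%, beside 31.2% of all genes). In Cre-positive brain 43 were called, 9 higher and 34 lower (29.7%, beside 27.5%). Of all genes called, 46.8% were higher in Cre-negative and 46.5% in Cre-positive brain, and the difference from the pathway's split was not tested. That split over all genes moved with scaling, to 52.8% and 58.0% with RLE factors and to 58.5% and 65.5% with upper-quartile factors, so the balance of directions is relative to the scaling.

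Among genes of cysteine supply and glutathione breakdown, 3 and 5 of 17 were called (Cre-negative first), beside 31.2% and 27.5% of all genes. Slc1a1, which encodes the neuronal transporter EAAC1 that brings in cysteine, was lower in the syn line at 110.1 ± 3.96 against 131.0 ± 6.46 CPM in Cre-negative brain and 112.1 ± 5.70 against 134.3 ± 3.09 CPM in Cre-positive brain (SD, n = 6 each). Its log2 fold changes were −0.25 (edgeR adjusted p = 9.24e-05) and −0.26 (adjusted p = 7.68e-05). Gnmt, a glycine methyltransferase, was higher in both (0.95 and 0.93) at about 1 CPM or less.

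Of the 5 other partners of CD98hc, 2 were higher in each genotype, where 31.2% and 27.5% of all genes were called. These were Slc7a6, a y+L system light chain (0.37 and 0.24), and Slc7a10, the light chain Asc-1 that carries serine, glycine and alanine (0.28 and 0.46), while Slc3a2 itself did not pass. Of 10 other peroxidases, glutaredoxins and glyoxalases, 5 and 4 were called, of which 1 and 0 were higher. The lower ones included Glrx, a cytosolic glutaredoxin (−0.42 and −0.26), the iron-sulfur glutaredoxin gene Glrx5 (−0.27 and −0.24) and the glyoxalase gene Glo1 (−0.16 and −0.18). Of 17 transferase and export genes, 5 and 5 were called, including Gsta4, which conjugates lipid aldehydes (−0.39 and −0.28), Gstm5 (−0.22 and −0.33) and the prostaglandin D synthase gene Hpgds (0.23 and 0.31).

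Of 17 thioredoxin, peroxiredoxin and superoxide genes, 7 and 5 were called, all lower in the syn line, beside 31.2% and 27.5% of all genes called. Srxn1, the sulfiredoxin that repairs overoxidised peroxiredoxins and an Nrf2 target, was at −0.22 and −0.27, with Prdx2 at −0.23 and −0.21 and Prdx3 at −0.24 and −0.18. Of 22 other Nrf2 targets, 7 and 6 were called, of which 0 and 1 were higher. Among the lower ones was Me1, the NADPH-making malic enzyme (−0.19 and −0.22). Of 15 genes that control Nrf2, 8 and 6 were called, of which 1 and 1 were higher. Keap1 (−0.20 and −0.18) and Cul3 (−0.19 and −0.19), which together mark Nrf2 for breakdown, were lower in the syn line, as was Nfe2l1, which encodes the related factor Nrf1 (−0.16 and −0.17).

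Of 15 heme and iron genes, 4 and 6 were called, beside 31.2% and 27.5% of all genes. Hmox2, the constitutive heme oxygenase, was at −0.21 and −0.21 beside the uncalled −0.02 and 0.09 of Hmox1, the iron exporter gene Slc40a1 was at −0.32 and −0.26, and the transferrin gene Trf was higher at 0.63 and 0.82. Of 13 ferroptosis modifiers, 5 and 4 were called and all were lower, among them Acsl4, which loads polyunsaturated lipids into membranes (−0.22 and −0.28), Cisd1 (−0.20 and −0.22) and Ptgs2 (−0.26 and −0.33). Of 13 genes for selenoprotein synthesis and supply, 3 and 4 were called and all were lower, including Sephs2, which makes the selenium donor (−0.39 and −0.36), Selenow (−0.36 and −0.36) and Eefsec, the elongation factor for selenocysteine (−0.28 and −0.24). Gpx1 and Gpx4 are selenoproteins too.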

How the data were processed

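The deposited files hold whole-number read counts per gene, not normalized. The tools were HISAT2, HTSeq 0.6.0 and DESeq2 1.6.3 and the build mm10, per the submitters' processing notes (roles not stated). Annotation release and strand setting: not given in the sources used here. Each file's 5 summary lines, which name no gene, were left out of sizes and tests. They held 7.52 to 11.1% of a file as reads outside genes in syn and 4.47 to 6.37% in gfap libraries. Ambiguous reads made up 3.19 to 7.46% over both lines.

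Symbols, coordinates and exon lengths came from GENCODE M21 (GRCm38), which matched 52489 of 52636 identifiers (99.7%). Groups follow the labels, and libraries are numbered by accession order, as names. All 24 libraries were fitted in edgeR 4.0.16 (R 4.3.3) as 1 model of 4 groups, with TMM scaling, filterByExpr, robust quasi-likelihood F tests, 20 residual degrees of freedom and Benjamini-Hochberg adjustment over 19726 genes. An adjusted p under 0.05 was called. P-values measure the spread between mice and intervals are 95%. The line comparisons share no library with each other, while each Cre comparison shares its groups with both line comparisons. The fit was checked on simulated counts. Ratios were tested with all 924 splits of 6 against 6 (smallest possible p = 0.00216), and correlations with 100000 permutations within groups.

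Alternatives were RLE and upper-quartile scaling, other filters, DESeq2 1.42.0, limma-voom (limma 3.58.1), each line alone, Ttr as a covariate, leaving out libraries above 1000 CPM of Ttr, and leaving out each library. The 10 genes, the lists and the tests were chosen with earlier results of these data known. Named genes were the 10, Slc1a2, pathway genes called in a Cre comparison, up to 3 per list with the smallest p called in both line comparisons with 1 sign, and the 3 genes most like Slc7a11, Nfe2l2 and Hmox1. Slc7a5 and Chac2 were named after their values were seen, and Ttr marks choroid plexus.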

Additional observations from a re-analysis of the deposited data

Results flagged for a closer look

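In library gfap-Cre-negative 4, Gpx1 stood at 50.68 CPM where the next of its group stood at 37.77. Gpx4 stood at 211.1 CPM there, and the next library at 163.7. Nfe2l2 stood at 15.81 CPM, and the next at 13.79. In each case the gap to the nearest library was 0.693 to 0.733 of the group's whole range, above Dixon's 95% limit for 6 libraries. Of 40 groups of 6 libraries examined these 3 were marked, and chance marks about 1 in 20. Among the marker sums, this library held 91.55 CPM of erythroid markers, the highest of its group, 11550 CPM of neuron markers, the lowest of the gfap line, and 5397 CPM of oligodendrocyte markers, the highest of its group. Their part in the 3 values was not tested.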

How the results depend on the processing

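No paired analysis was possible because the labels give no replicate numbers shared between groups. No setting brought any of the 10 genes past the threshold in a Cre comparison or in the difference between Cre effects (smallest adjusted p 0.82). The count of all genes called in the syn line was 1 and became 5 with no filter, 14 with DESeq2, 7 with limma-voom, 2 with each line fitted alone, 3 without libraries above 1000 CPM of Ttr, 1 to 3 leaving out single syn libraries and 4 without library gfap-Cre-negative 4. The line comparisons called 3647 (Cre-negative) and 2259 genes (Cre-positive) without the high-Ttr libraries, with fewer samples. Between lines in Cre-negative brain 2 of the 10 genes were called, and 0 passed with RLE factors, upper-quartile factors, no filter, DESeq2, limma-voom or without high-Ttr libraries, 1 with a 1 CPM filter (Nfe2l2, in place of Gsr and Gpx4), 1 with Ttr as a covariate (Gpx4), and 0 to 3 leaving out single libraries, the 3 with Nfe2l2 added. In Cre-positive brain 1 passed with RLE factors, upper-quartile factors, no filter, a 1 CPM filter or DESeq2, 0 without high-Ttr libraries, and 0 to 2 leaving out single libraries. The Cre-negative calls of Gsr and Gpx4 were lost in 7 and 8 of the 12 fits that leave out a library of the groups compared, and the Cre-positive calls of Gsr and Gss in 6 and 1 of 12, with their direction kept. The 26 other pathway genes named gave 1038 values, of which 83 lost their call and 0 turned.

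The sign changes below were all of values that passed in neither setting, and the widest was that of Slc7a11, from 0.12 in the syn line. In the syn line without high-Ttr libraries, Slc7a11 was −0.0917, Hmox1 −0.0218, Gpx4 −0.022, Gclm 0.0551, Gsr 0.0014 and Gclc 0.0111, and Gpx4 was −0.0072 with limma-voom. In the gfap line limma-voom gave Hmox1 0.0196 and Gpx1 0.0241. For the difference between Cre effects, limma-voom gave Slc7a11 0.0045 and Gclm 0.0037, and leaving out high-Ttr libraries gave Gclm 0.0624, Gsr 0.0659 and Gclc 0.0251. Gpx1 there was 0.0004 with RLE factors, 0.0005 with DESeq2 and 0.0061 with Ttr as a covariate. Between lines in Cre-negative brain, Hmox1 was 0.0127 (upper-quartile), 0.0199 (1 CPM filter) and 0.0133 (limma-voom), and Gclc 0.0056 (1 CPM filter). In Cre-positive brain Hmox1 was −0.0061 (Ttr as a covariate) and −0.0375 (without high-Ttr libraries), and Nfe2l2 was 0.0177 (RLE), 0.0344 (upper-quartile), 0.0369 (1 CPM filter) and 0.0179 (DESeq2). The cause of these changes was not tested.

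Leaving out single libraries moved Gpx4 in the syn line from −0.0043 to 0.0692. In the gfap line the ranges were −0.0996 to 0.0225 for Slc1a2, −0.0873 to 0.023 for Hmox1, −0.0761 to 0.0051 for Slc3a2, −0.021 to 0.0094 for Gclm, −0.0375 to 0.0137 for Gclc, −0.0725 to 0.0694 for Gpx1 and −0.1135 to 0.0105 for Gpx4. For the difference between Cre effects they were −0.0551 to 0.0251 for Slc3a2, −0.1245 to 0.0359 for Slc7a11, −0.048 to 0.0024 for Gclm, −0.0512 to 0.0164 for Gsr, −0.0415 to 0.0094 for Gclc and −0.1069 to 0.034 for Gpx1. Between lines they were −0.0918 to 0.0349 for Hmox1 and −0.1485 to 0.01 for Gpx1 in Cre-negative brain, and −0.0783 to 0.0596 for Nfe2l2 in Cre-positive brain. The log2 ratio of Gclc to Gclm ran from −0.0196 to 0.0337 (syn Cre), −0.0266 to 0.0135 (gfap Cre) and −0.0018 to 0.0529 (Cre-negative lines). Of the co-varying pairs 0 to 1 passed, with r of Slc3a2 and Gpx1 in the gfap line at 0.83 to 0.913 and its call lost in 4 of 12. Depth limits Hmox1 most, with 163 counts in its lowest library.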
